A study of Mus musculus with 8 samples.

Results

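The AP-2 genes Tfap2a, Tfap2b and Tfap2c were followed in palatal shelves of mouse embryos at embryonic day 14.5. Of 18193 genes with a probe set of their own on the array, these 3 were taken. They were read by 8 of 34945 probe sets annotated with a single gene symbol, 3 each for Tfap2a and Tfap2c and 2 for Tfap2b. The genes were selected on results of these same arrays, namely their levels in wild type shelves and their differences by genotype. Those values are therefore given as a description, without a test. Shelves homozygous for the R26Pax3 allele, R26 being the usual short name of the Rosa26 locus and Pax3 a transcription factor (R26Pax3/Pax3, 4 arrays, replicates 1, 3, 4 and 7), were set beside wild type littermates (labelled Pax3 WT, 4 arrays, replicates 2, 6, 8 and 11). All embryos came from a C57BL/6 by SV129 cross. The labels name no driver that would restrict where the allele is active, and they do not say how many embryos gave a sample, so spread between arrays may be partly technical.

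AP-2 proteins are transcription factors that bind DNA as dimers at GC-rich sites with the consensus GCCNNNGGC. In the head, Tfap2a and Tfap2b act in neural crest, the migratory cells that form most of the facial skeleton and mesenchyme, and in the surface ectoderm beside it. Tfap2c is known from ectoderm, trophoblast and germ cells. Loss of Tfap2a in mice leaves the face cleft, and human mutations of TFAP2A and TFAP2B cause syndromes with altered faces. Pax3 marks early neural crest alongside AP-2 factors.

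The promoters of Tfap2a and Tfap2b, but not of Tfap2c, were searched for that consensus, which reads the same on both strands. The windows were 300 bases from RefSeq (GRCm38.p6), 250 before a gene's start and 50 after. Tfap2a (2 windows) and Tfap2b (1 window) held no match, while 5450 of 32851 promoters (16.6%) held one. Among AP-2 cofactors 4 of 13 windows held a match, among reported AP-2 targets 4 of 13 and among facial neural crest factors 1 of 7. A gene can have several windows, and not every listed gene had one. Counted by gene, a match was held by 3 of 9 cofactors, 3 of 10 targets and 1 of 7 neural crest factors. Over all genes it was 5013 of 27025 (18.5%). Nothing is read from such small counts. A match is a run of letters and not a measured binding site. The Tfap2b window is shown because Tfap2b varied most between arrays, and 1 of 3 windows of Kctd15, a gene for an AP-2 inhibitor, because it held the consensus 3 times, starting at bases 23, 38 and 51. Capitals mark matches, both read 5′ to 3′ on the gene's strand, Tfap2b at chr1:19211804-19212103 (+) and Kctd15 at chr7:34652883-34653182 (-).
Tfap2b: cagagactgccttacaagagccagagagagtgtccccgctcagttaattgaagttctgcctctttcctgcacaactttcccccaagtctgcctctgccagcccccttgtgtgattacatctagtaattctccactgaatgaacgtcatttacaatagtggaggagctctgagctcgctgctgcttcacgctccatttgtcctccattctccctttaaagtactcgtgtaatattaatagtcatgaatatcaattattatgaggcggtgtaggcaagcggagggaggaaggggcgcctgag
Kctd15: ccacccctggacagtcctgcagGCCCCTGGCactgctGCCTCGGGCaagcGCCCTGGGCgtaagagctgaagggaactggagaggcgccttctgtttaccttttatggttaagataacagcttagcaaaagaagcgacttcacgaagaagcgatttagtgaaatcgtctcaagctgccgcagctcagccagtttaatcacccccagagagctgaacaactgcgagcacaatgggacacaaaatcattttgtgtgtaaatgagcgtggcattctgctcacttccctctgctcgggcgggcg

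The signal is a linear intensity per probe set, made with MAS5, which scales each array to a common level. The median over all probe sets lay between 43.5 and 44.8 on every array, and a signal below that of its array is called dim here. Dim signals were not told apart from background. Different probe sets were not compared in level, because each binds with its own strength. Pax3 and Gt(ROSA)26Sor, a gene of the Rosa26 locus, checked the labels. The brightest Pax3 probe set read between 532.4 and 721.5 in R26Pax3/Pax3 and between 141.9 and 176.4 in wild type. Another, 1430335_a_at, was also higher without overlap. The remaining one, 1441743_at, went the other way, with means of 82.5 and 103 and overlapping groups. Gt(ROSA)26Sor read 12.8 to 30.3 in R26Pax3/Pax3 and 271.1 to 389.7 in wild type. In whole tissue, fewer cells of a type and less RNA per cell cannot be told apart.

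Tfap2a was measured well above the dim range by 2 of its 3 probe sets, and both were steady from array to array. On the brightest, 1421996_at, the wild type arrays read 101.2, 108.5, 110.8 and 119.4, and the R26Pax3/Pax3 arrays read 105.7, 107.3, 126.0 and 141.9. The groups overlapped, with means of 110 ± 7.5 and 120 ± 17.1 (SD, n = 4 each). The difference was 0.11 on the log2(signal + 16) scale used throughout (SE 0.118, R26Pax3/Pax3 minus wild type). It was 0.03 without R26Pax3/Pax3 replicate 4.

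The second Tfap2a probe set, 1426048_s_at, read 66.3, 71.8, 72.4 and 77.8 in wild type and 79.7, 90.3, 94.0 and 98.6 in R26Pax3/Pax3. All 4 R26Pax3/Pax3 values lay above all wild type values, the nearest pair being 77.8 and 79.7. The mean was 72.1 ± 4.70 in wild type and 90.7 ± 8.05 in R26Pax3/Pax3 (SD, n = 4 each). The means differed 1.26-fold, or by 0.27 on the log2 scale (SE 0.114). The third, 1421995_at, was dim on every array, at 16.9 to 29.8, and fell below the filter on low signals.

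Tfap2b had the largest difference in mean of the 3 genes, and also the largest spread between arrays. On 1435670_at the wild type arrays read 65.1 in replicate 11, 91.7 in replicate 2, 125.3 in replicate 6 and 184.4 in replicate 8. The R26Pax3/Pax3 arrays read 151.4 in replicate 1, 162.7 in replicate 7, 285.3 in replicate 4 and 352.9 in replicate 3. Replicates 3 and 4 stood above every wild type array, while wild type replicate 8 lay above replicates 1 and 7. The wild type mean was 117 ± 51.5 and the R26Pax3/Pax3 mean 238 ± 97.7 (SD, n = 4 each). They differed 2.04-fold, or by 0.94 on the log2 scale (SE 0.295).

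The other Tfap2b probe set, 1423340_at, had a similar order of arrays. Wild type replicates 11, 2 and 6 read 57.0, 60.2 and 67.0, and replicate 8 read 119.9. In R26Pax3/Pax3, replicate 7 read 69.4, replicate 1 read 151.5, replicate 3 read 227.1 and replicate 4 read 338.3. Here 3 of 4 R26Pax3/Pax3 arrays exceeded every wild type array. R26Pax3/Pax3 replicate 7 lay just above wild type replicates 11, 2 and 6 and below wild type replicate 8. The wild type mean was 76.0 ± 29.5 and the R26Pax3/Pax3 mean 197 ± 114 (SD, n = 4 each). They differed 2.59-fold, or by 1.07 on the log2 scale (SE 0.357). Leaving out 1 array at a time kept the difference between 0.73 and 1.16 on the former probe set and between 0.77 and 1.45 on the latter.

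The 3 Tfap2c probe sets did not give the same difference. On the brightest, 1436392_s_at, wild type replicates 2 and 11 read 46.1 and 62.8 and replicates 6 and 8 read 108.0 and 110.9. The R26Pax3/Pax3 arrays read 63.7 in replicate 1, 94.6 in replicate 7, 127.3 in replicate 4 and 134.3 in replicate 3. The groups overlapped over much of their range, with means of 82.0 ± 32.5 and 105 ± 32.5 (SD, n = 4 each) and a log2 difference of 0.33 (SE 0.255). With 1 array left out it ran from 0.13, without wild type replicate 2, to 0.51, without R26Pax3/Pax3 replicate 1.

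On 1448977_at the Tfap2c signal was 43.7, 48.6, 60.2 and 65.6 in wild type and 66.8, 68.5, 93.6 and 107.0 in R26Pax3/Pax3. The groups did not overlap, but the highest wild type and lowest R26Pax3/Pax3 arrays stood only 65.6 against 66.8. The means were 54.5 ± 10.1 and 84.0 ± 19.6 (SD, n = 4 each), and the difference 0.49 (SE 0.165). The third probe set, 1418147_at, read 25.1 to 67.8 in wild type and 37.2 to 66.6 in R26Pax3/Pax3, around the array medians, with a log2 difference of 0.08 (SE 0.216). That difference turned to -0.12 without wild type replicate 2 and to -0.04 without R26Pax3/Pax3 replicate 4.

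**Figure D1:**
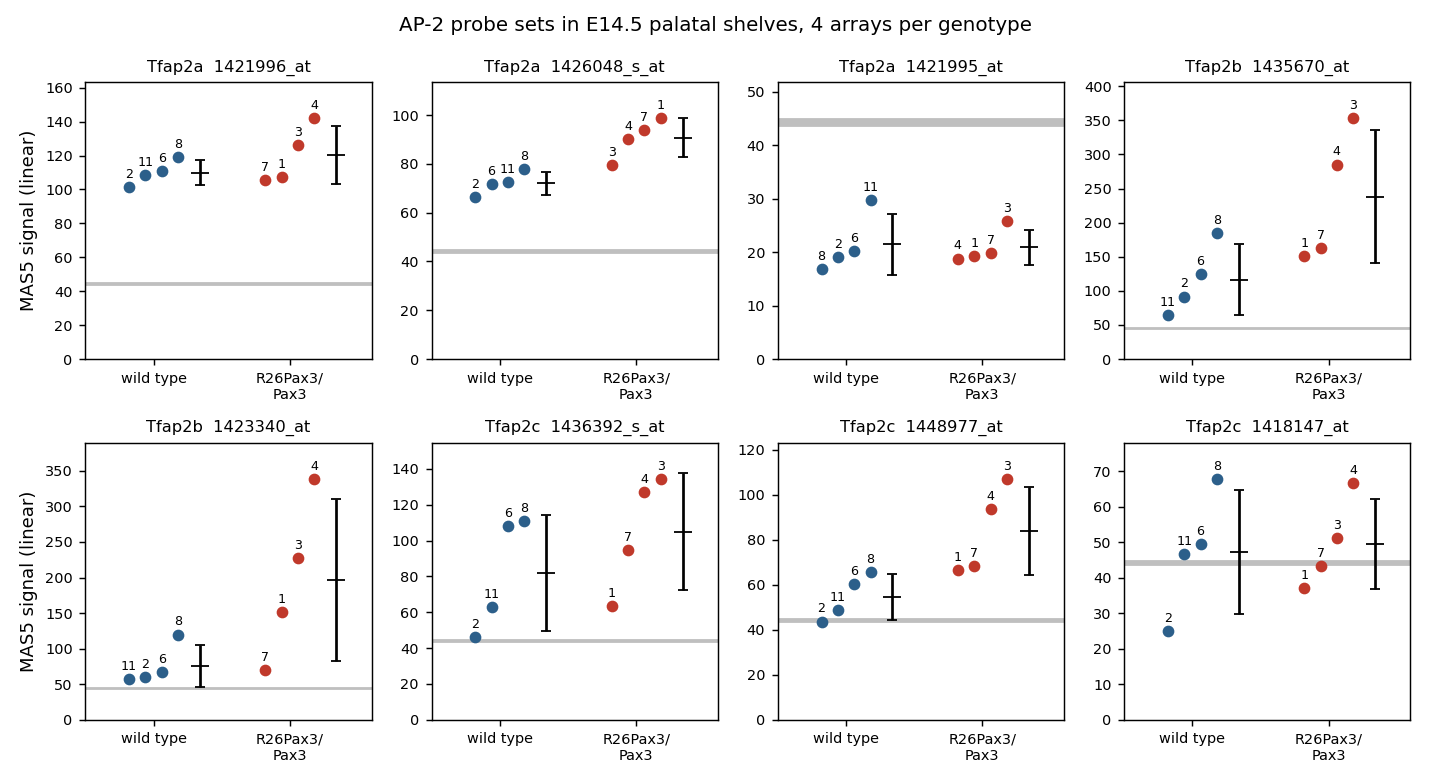
Linear MAS5 signal of each AP-2 probe set on each array. Blue points are wild type and red points R26Pax3/Pax3 arrays with their replicate number, black bars show mean ± SD (n = 4), and the grey band is the range of array medians, 43.5 to 44.8. The Tfap2b panels hold the widest spread, with R26Pax3/Pax3 replicates 3 and 4 highest and wild type replicate 8 above the other wild type arrays.

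The remaining AP-2 genes were at the bottom of the scale. Tfap2d, known from the developing eye and midbrain, read 0.9 to 16.5 over the 8 arrays, and Tfap2e, known from the olfactory system, read 1.0 to 6.3. Each has 1 probe set, both were dim on all 8 arrays, and neither entered the test.

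The genotype difference was fitted over 27021 probe sets with limma. It called 4 probe sets (0.0148%) at an adjusted p under 0.05, 2 of them Pax3, and none of the 7 AP-2 probe sets past the filter was among them. Without R26Pax3/Pax3 replicate 3 it called 5 higher and 4 lower. Of the 7, 2 had groups that did not overlap, both higher in R26Pax3/Pax3, where 1.39% of all probe sets were higher without overlap. As these differences took part in the choice of the genes, nothing is read from either count. The differences of the 7 ran from 0.08 to 1.07. The median over all probe sets was 0.00, and 5% to 95% of them lay between -0.27 and 0.27. For the same reason nothing is read from where the 7 lie in that range.

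The order in which arrays were deposited split them into a first and a last set of 4, with 2 of each genotype in each. The first set held R26Pax3/Pax3 replicates 1 and 3 and wild type replicates 6 and 8, and the last held R26Pax3/Pax3 replicates 4 and 7 and wild type replicates 2 and 11. The Tfap2b differences were 0.56 in the first and 1.31 in the last set on 1435670_at, and 0.93 and 1.22 on 1423340_at. For Tfap2a, the brightest probe set, 1421996_at, gave 0.01 and 0.20, and 1426048_s_at gave 0.21 and 0.34. For Tfap2c the brightest probe set gave -0.20 in the first and 0.85 in the last set, and 1418147_at gave -0.31 and 0.46, so that 2 of 3 Tfap2c probe sets did not keep a direction. The remaining Tfap2c probe set gave 0.36 and 0.63.

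**Figure D2:**
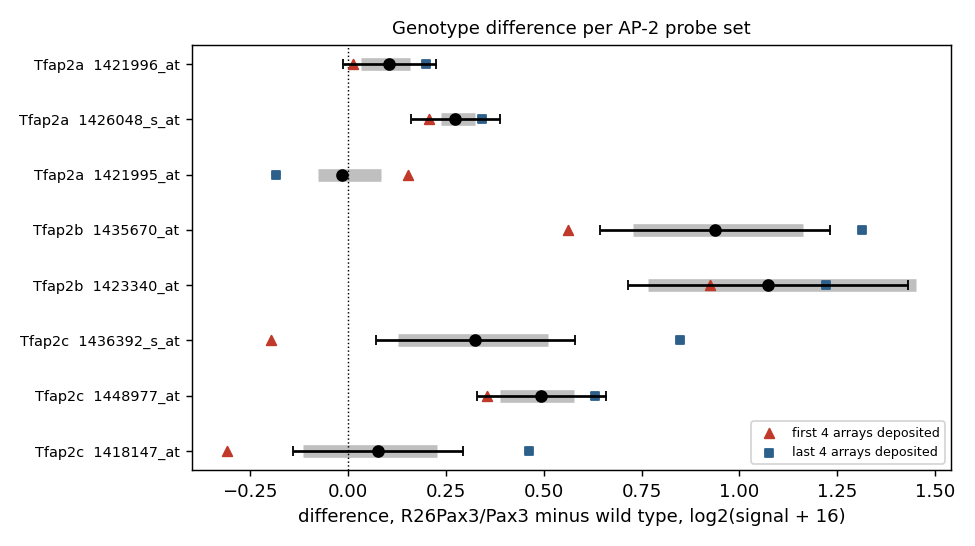
Difference between R26Pax3/Pax3 and wild type for each AP-2 probe set, on the log2(signal + 16) scale. Black points and bars are the difference and limma's SE (no SE for 1421995_at, which was below the filter), grey bars span the values with 1 array left out, and triangles and squares show the first 4 and the last 4 deposited arrays taken separately. Both Tfap2b probe sets lie at 0.94 and 1.07, and 2 Tfap2c probe sets lie on opposite sides of 0 in the first and last sets.

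Spread within a genotype differed between the genes. It is computed apart from the difference between genotypes, but a probe set with a large spread more easily gives a large difference. As these differences took part in the choice of the genes, the choice may have favoured a large spread. The values are therefore a description, and nothing is read from where they lie among all probe sets. The within-genotype SD on the log2 scale was 0.56 and 0.68 on the Tfap2b probe sets, and 98.2% and 99.1% of the 27021 probe sets had a smaller one. For Tfap2c it was 0.47, 0.25 and 0.36 in order of brightness, and 96.6%, 72.5% and 91.3% of probe sets had a smaller one. For Tfap2a it was 0.14 and 0.10 on the probe sets above the filter, both below the median of 0.19 over all probe sets. The range over all 8 arrays also includes the difference between genotypes. From the lowest to the highest signal it was 5.42-fold and 5.94-fold for Tfap2b, against 1.40-fold and 1.49-fold for Tfap2a.

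Probe sets of 1 gene moved together between arrays for Tfap2b and Tfap2c, and not for Tfap2a. After the mean of each genotype was subtracted, r over the 8 arrays was 0.75 between the Tfap2b probe sets and 0.91, 0.86 and 0.77 between pairs of Tfap2c probe sets. Between the Tfap2a probe sets past the filter r was -0.16. These values carry no test.

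The same deviations showed which arrays were high for all 3 genes. On the brightest probe set of each gene, wild type replicates 6 and 8 and R26Pax3/Pax3 replicates 3 and 4 lay above their genotype mean for all 3, and the other 4 arrays lay below for all 3. In wild type the arrays above were those of the first deposit set and the arrays below those of the last. There, deposit set and shared movement cannot be told apart. In R26Pax3/Pax3 each deposit set held an array above and an array below. Of 15 relations tested between the genes and with 4 marker lists, none passed an adjusted p of 0.05 in the exact permutation test (two-sided, arrays reordered within genotype, smallest possible p 0.00174), and 3 had an unadjusted Pearson p under 0.05.

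For Tfap2b and Tfap2c, r was 0.83 (exact permutation p = 0.036, adjusted 0.186) and Spearman's rho 0.76 (p = 0.056, adjusted 0.167). It was 0.75 without the 2 arrays farthest from the median of Tfap2b. Within R26Pax3/Pax3 it was 0.91 and within wild type 0.77 (n = 4 each, no test). For Tfap2a and Tfap2b, r was 0.76 (exact permutation p = 0.068, adjusted 0.186), rho 0.76 (p = 0.052, adjusted 0.167) and r without 2 arrays 0.85. For Tfap2a and Tfap2c, r was 0.75 (exact permutation p = 0.035, adjusted 0.186), rho 0.67 (p = 0.036, adjusted 0.167) and r without 2 arrays 0.93. With the genotype means within each deposit set removed, r was 0.76 for Tfap2b and Tfap2c. It was 0.78 for Tfap2a and Tfap2b and 0.77 for Tfap2a and Tfap2c. The exact permutation p within deposit sets was 0.375, 0.25 and 0.125 in that order, where the smallest possible was 0.0625.

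The Tfap2a relations rest on 1 probe set. With the second brightest probe set of each gene, r was -0.14 for Tfap2a and Tfap2b and -0.32 for Tfap2a and Tfap2c, but 0.75 for Tfap2b and Tfap2c. The 3 genes then lay on 1 side of their genotype mean together on 2 of 8 arrays, and Tfap2b and Tfap2c did so on 7 of 8.

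Neuronal genes mark nerve fibres or ganglion cells in dissected tissue, and their relation to the AP-2 genes did not pass the test. All 10 neuronal markers had a higher mean in R26Pax3/Pax3, with a median log2 difference of 0.77 and none called. Their differences ran from -0.12 to 0.33 in the first deposit set and from 0.46 to 2.16 in the last. The summed neuronal signal was 1292.0 to 2121.8 in R26Pax3/Pax3 and 598.2 to 2303.7 in wild type. By array, wild type replicates 2 and 11 had 598.2 and 641.8, replicate 8 had 1309.7 and replicate 6 had 2303.7. In R26Pax3/Pax3, replicate 7 had 1292.0, replicate 1 had 1771.3, replicate 4 had 2119.6 and replicate 3 had 2121.8.

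Within genotype, the mean of the neuronal markers had an r of 0.68 with Tfap2b (exact permutation p = 0.087, adjusted 0.186), a rho of 0.69 (p = 0.094, adjusted 0.176) and an r of 0.91 without the 2 farthest arrays. With Tfap2a r was 0.53 (exact permutation p = 0.075, adjusted 0.186). With Tfap2c r was 0.79 (exact permutation p = 0.076, adjusted 0.186), rho 0.90 (p = 0.052, adjusted 0.167) and r without 2 arrays 0.72. With the means of the first and last deposit sets removed as well, r was 0.62 for Tfap2a, 0.35 for Tfap2b and 0.54 for Tfap2c. With the second brightest probe sets r was 0.09, 0.50 and 0.72 in the same order.

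Neuronal sums and AP-2 signals of single arrays stand side by side as follows. Wild type replicate 6 had the highest neuronal sum of the 8 arrays. Its Tfap2b signals of 125.3 and 67.0 lay below every R26Pax3/Pax3 array. Its Tfap2c signals depended on the probe set. On the brightest, 108.0 lay above R26Pax3/Pax3 replicates 1 and 7, at 63.7 and 94.6. On 1448977_at, 60.2 lay below every R26Pax3/Pax3 array, the lowest being 66.8. On 1418147_at it read 49.4, within the R26Pax3/Pax3 range of 37.2 to 66.6. Wild type replicate 8 and R26Pax3/Pax3 replicate 7 had neuronal sums of 1309.7 and 1292.0. Their Tfap2b signals were 184.4 and 162.7 on 1435670_at, and 119.9 and 69.4 on 1423340_at. Their Tfap2c signals were 110.9 and 94.6 on 1436392_s_at, 65.6 and 68.5 on 1448977_at, and 67.8 and 43.3 on 1418147_at. The part of neuronal tissue in the AP-2 differences was not tested.

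**Figure D3:**
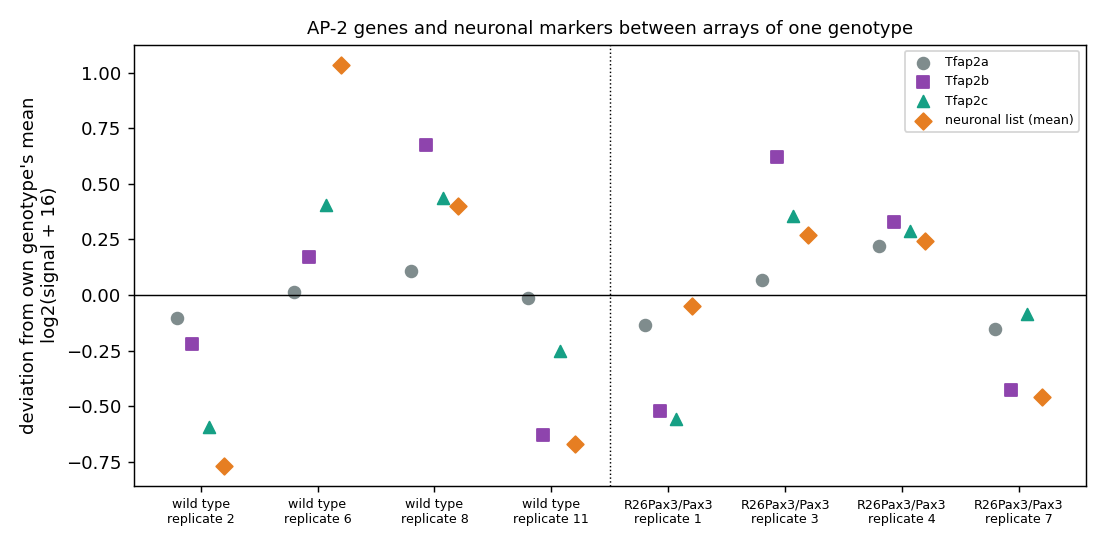
Deviation of each array from the mean of its own genotype, on the log2(signal + 16) scale, for the brightest probe set of each AP-2 gene and for the mean of the neuronal markers, with the 8 arrays side by side. Wild type replicates 6 and 8 and R26Pax3/Pax3 replicates 3 and 4 are above 0 for all 3 genes, as is the neuronal mean, which is highest in wild type replicate 6.

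Ectoderm is a known site of AP-2 expression, and epithelial markers were well measured here. All 12 were above the array median on all 8 arrays. Their summed signal was 7503.9 to 10029.4 in R26Pax3/Pax3 and 6393.4 to 8235.2 in wild type. Of the 12, 11 had a higher mean in R26Pax3/Pax3, with a median log2 difference of 0.26 and none called. The differences ran from -0.03 for Grhl2 and 0.03 for Epcam to 0.96 for Krt17, so the markers did not shift alike. Within genotype the epithelial mean had an r of -0.14 with Tfap2a, -0.29 with Tfap2b and -0.50 with Tfap2c, with exact permutation p values of 0.778, 0.509 and 0.266. Without the 2 farthest arrays, R26Pax3/Pax3 replicate 3 and wild type replicate 6, r was 0.07, 0.40 and -0.01 in the same order. The negative values thus rested on those arrays. The part of epithelial content in the AP-2 differences was not tested.

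Palate mesenchyme, the crest-derived bulk of the shelf, was measured by 10 of 10 markers above the median on all arrays. Its summed signal was 16534.2 to 18292.0 in R26Pax3/Pax3 and 17240.9 to 20013.3 in wild type. In this and every other sum the brightest probe sets weigh most. Here Col3a1 alone read 7734.7 to 10000.4 over the 8 arrays. Within genotype the mean of the mesenchyme markers had an r of -0.75 with Tfap2a (exact permutation p = 0.049, adjusted 0.186), -0.39 with Tfap2b and -0.48 with Tfap2c. Without the 2 farthest arrays r was -0.65, -0.06 and -0.22 in the same order. With the second Tfap2a probe set r was 0.02. The Schwann and glial list had an r of 0.43, 0.60 and 0.60 with Tfap2a, Tfap2b and Tfap2c, none under an unadjusted p of 0.05 in the exact permutation test. In that list Foxd3 was dim on all arrays and did not enter the mean. Of the genes in the mean, Sox10 was above the array median on 2 R26Pax3/Pax3 arrays and 1 wild type array. S100b was above it on 3 arrays of each genotype.

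Melanocytes, another crest derivative that uses AP-2 factors, left little signal. The 5 markers Dct, Mlana, Pmel, Tyr and Tyrp1 were dim on all 8 arrays, with sums of 48.2 to 68.2 in R26Pax3/Pax3 and 58.1 to 84.8 in wild type. Of the other lists, osteoblast markers summed to 7063.0 to 8337.8 in R26Pax3/Pax3 and 8131.7 to 10648.8 in wild type, with 6 of 6 lower. Among them Ibsp alone read 4768.0 to 6796.0 over the 8 arrays. Skeletal muscle markers summed to 479.0 to 3492.5 and 1572.4 to 3709.0, with R26Pax3/Pax3 replicate 7 lowest. Tooth germ markers summed to 1123.3 to 1463.5 and 1324.3 to 1597.5, and Amelx, Dspp, Enam, Fgf3 and Fgf4 were dim on all arrays. Endothelial markers summed to 913.2 to 1050.4 and 946.5 to 1042.5, and red cell and leukocyte markers to 913.7 to 1302.3 and 870.5 to 1178.2. No member of any of these lists was called. Their part in the AP-2 differences was not tested.

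AP-2 proteins act through partners, and 10 of the partners listed were above the array median on all 8 arrays. Of 12 cofactors analysed, 11 passed the filter, 6 with a higher and 5 with a lower mean in R26Pax3/Pax3. The median log2 difference was 0.03, against 0.00 over all probe sets, and none was called. The CBP coactivators Ep300 and Crebbp differed by 0.06 and -0.01 on their brightest probe sets, and a second Crebbp probe set, 1436983_at, by 0.41 with overlapping groups. Among the CITED proteins, which link AP-2 to those coactivators, Cited2 differed by -0.04 and Cited1 by 0.03, while Cited4 was dim on all 8 arrays.

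Kctd15, whose protein binds AP-2alpha and blocks its activation domain, was the cofactor with the smallest p. Its signal was 531.2, 557.3, 571.9 and 585.0 in wild type and 652.4, 683.4, 692.4 and 699.0 in R26Pax3/Pax3. The groups did not overlap and each was tight, but the difference of 0.27 (SE 0.0725) missed the threshold after adjustment over all probe sets (limma adjusted p = 0.639). It was 0.35 in the first and 0.20 in the last deposit set. The related inhibitor Kctd1 differed by 0.04. The next by p, Yeats4, Wwox and Parp1, differed by -0.13, -0.15 and -0.08, and a second Parp1 probe set, 1422503_s_at, read higher without overlap, by 0.24, so the Parp1 probe sets disagreed.

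Genes reported elsewhere as AP-2 targets were next. Of 13 analysed, 11 passed the filter, 8 higher and 3 lower in R26Pax3/Pax3, with a median log2 difference of 0.08 and none called. That median ran from 0.02, without wild type replicate 11, to 0.18, without wild type replicate 6. Krt14, a keratin of basal epithelium, had the smallest p. It read 673.0, 722.7, 878.0 and 1034.9 in wild type and 938.1, 1304.6, 1345.0 and 1527.0 in R26Pax3/Pax3, a difference of 0.62 (SE 0.157), which was not called (limma adjusted p = 0.603). The groups overlapped, since wild type replicate 2 lay above R26Pax3/Pax3 replicate 3. A second Krt14 probe set, 1460347_at, differed by 0.73 without overlap.

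Krt5, the partner keratin of Krt14, read 346.2 to 755.0 in wild type and 584.9 to 873.0 in R26Pax3/Pax3, a difference of 0.43. The cell adhesion gene Cdh1 differed by 0.23 and the matrix protease gene Mmp2 by -0.08. Krt5 and Krt14 belong to the epithelial list as well, so the target list is not independent of epithelial content. The receptor genes Erbb2, Erbb3 and Egfr differed by 0.07, 0.03 and 0.08. Esr1, Hoxa2 and Dbh were dim on all 8 arrays.

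Other facial neural crest factors were compared in the same way. Of 13 analysed, 9 passed the filter, 5 higher and 4 lower, with a median log2 difference of 0.00 and none called. Prrx1, Sox9 and Snai2 differed by 0.00, 0.00 and 0.02. Msx1 read 387.4 to 884.5 in wild type and 698.5 to 1181.8 in R26Pax3/Pax3, a difference of 0.45 (SE 0.227), and its relative Msx2 differed by -0.40 at a low signal, both with overlap. Twist1 differed by -0.21 and Alx1 by 0.13. Alx4, Foxd3, Pax7 and Zic1 were dim on all 8 arrays.

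**Figure D4:**
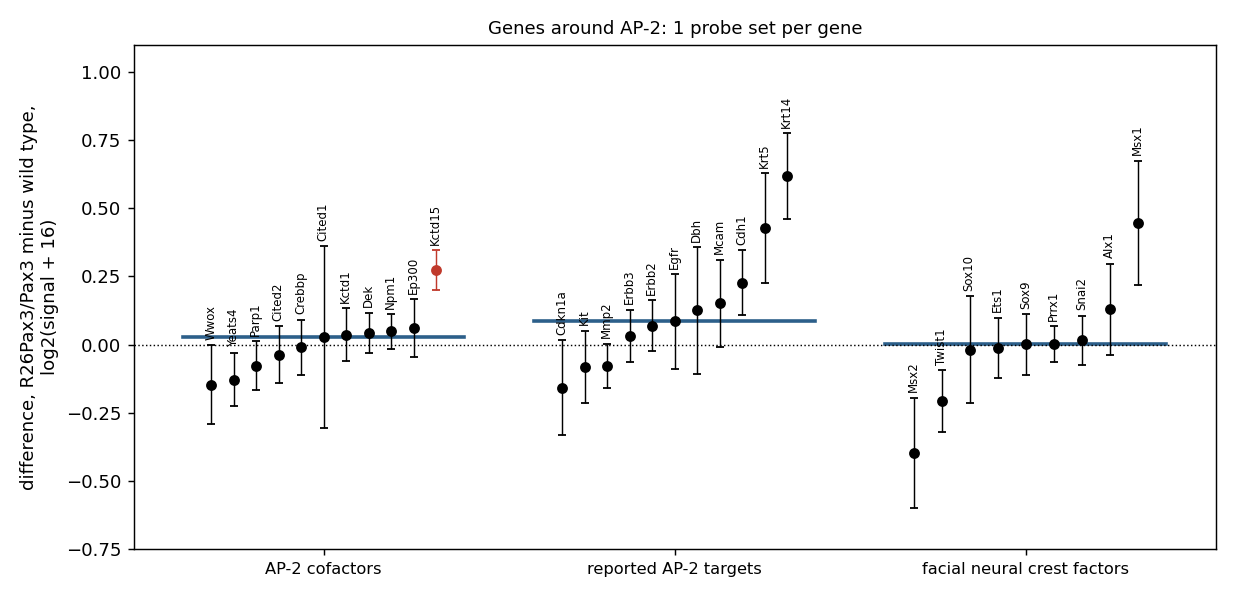
Difference between R26Pax3/Pax3 and wild type of each gene in the AP-2 cofactor, reported target and facial neural crest lists, on the log2(signal + 16) scale, for the brightest probe set of genes past the filter. Points are genes with limma's SE, blue lines are the list medians of 0.03, 0.08 and 0.00, and red marks the gene whose groups did not overlap. Krt14 at 0.62 and Kctd15 at 0.27 have the smallest p in their lists, and no gene was called.

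The genes whose deviations followed each AP-2 gene most closely differed from gene to gene. For Tfap2b the highest r values over 8 arrays were those of Iqgap2 (0.983), Arl2bp (0.978), Cntn3 (0.977), Atl1 (0.977) and Camta1 (0.974). With the second Tfap2b probe set these 5 had r values from 0.65 to 0.81. For Tfap2c they were Twf2 (0.994), Ice1 (0.987), Epyc (0.983), Tubb2b (0.982) and Ubp1 (0.980), at 0.84 to 0.92 with the second probe set. For Tfap2a they were Orc1 (0.985), Klhl13 (0.983), Cklf (0.958), Itgb5 (0.957) and Arf3 (0.956), and with the second probe set they lay between -0.28 and -0.02. Each is the highest of the values over all 22778 kept probe sets with 1 symbol, on 8 arrays, and is given as a description. Among these genes, Epyc had means of only 27.9 in R26Pax3/Pax3 and 28.05 in wild type, below the array medians.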

How the data were processed

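Total RNA from palatal shelves was hybridised to 1 array per sample, per the labels. The authors deposited 1 linear intensity per probe set and array. The submitters' processing notes name MAS5. Its version and settings are not given in the sources used here. The mean of each array after trimming 2% at each end was 150.001. The number of arrays, 4 per genotype, limits the precision, and the labels do not say that samples came from separate embryos, so p-values measure only the spread between these samples.

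Probe sets were named from the platform annotation with symbols updated through RefSeq (GRCm38.p6): of 45037 without controls, 34945 had 1 symbol, 932 several and 9160 none. Genotypes were compared on log2(signal + 16) with limma 3.58.1 in R 4.3.3 (lmFit, eBayes with an intensity trend, Benjamini-Hochberg), over the 27021 probe sets with a mean signal above 25.4, the 40th percentile. A probe set was called at an adjusted p under 0.05. Over all of them 656 were higher and 658 lower at an unadjusted p under 0.05. Scripts were tested on simulated data.

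The 3 genes and all lists were chosen with earlier results of these data known. The text names every AP-2 probe set, from each list of cofactors, reported targets and facial neural crest factors any called gene and the 4 with the smallest p, and the 5 genes most like each AP-2 gene; further list members were named after their values were seen. A list gene is represented by its brightest probe set. Relations used deviations from genotype means. Alternatives were the pseudocount, quantile normalization, the filter, the trend, the deposit sets as a block, leaving out each array, the median over a gene's probe sets and, added later, the second brightest AP-2 probe sets.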

Additional observations from a re-analysis of the deposited data

Results flagged for a closer look

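In each group of 4 arrays, the highest and the lowest signal were compared with the rest for the AP-2 probe sets and the list genes named by smallest p, and a gap above 0.829 of the group's range marked the array. Of 40 groups 2 were marked, and chance marks about 1 in 20. On the Tfap2b probe set 1423340_at, wild type replicate 8 read 119.9, while the other wild type arrays read 57.0, 60.2 and 67.0. On the dim Tfap2a probe set 1421995_at, R26Pax3/Pax3 replicate 3 read 25.8, while the others read 18.8, 19.3 and 19.8.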

How the results depend on the processing

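With 1 array left out, 2 to 5 probe sets were called higher and 2 to 4 lower, both highest without R26Pax3/Pax3 replicate 3. The median difference of the cofactors ran from -0.0494, without that array, to 0.0351. The Tfap2b differences stayed between 0.73 and 1.45 over all alternatives, and those of the brighter Tfap2a probe sets between 0.03 and 0.33. With the second brightest probe sets, chosen after seeing the data, r turned to -0.138 for Tfap2a and Tfap2b, -0.318 for Tfap2a and Tfap2c, 0.318 for Tfap2a and epithelium, 0.0164 for Tfap2a and palate mesenchyme and -0.504 for Tfap2a and the glial list. With 1 array left out, r with epithelium ran from -0.619 to 0.0493 for Tfap2a and from -0.503 to 0.0767 for Tfap2b. The cause was not tested. A filter at the 60th percentile left no value for the Tfap2c probe sets 1448977_at and 1418147_at. No paired analysis was made, because the labels do not say which arrays came from the same litter. Signals near the array median, as on the Tfap2c probe set 1418147_at, limit what can be read from small differences.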
